A study of Mus musculus with 21 samples.

Results

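The nuclear genes for subunits of mitochondrial complexes I, III, IV and V were followed through skin and lymph nodes of *Ifnk* transgenic (TG) and wild-type (WT) mice. Members were chosen by a rule on the gene symbol, with earlier results of these data known. A gene was taken if its name started with Nduf followed by a, b, c, s, v or ab and a number, with Uqcr, with Cox and a digit from 4 to 8, or with Atp5, and names containing -ps were left out. The rule found 82 of the 55487 genes in each table, of which 36 belonged to complex I, 8 to complex III, 20 to complex IV and 18 to complex V. *Ndufa4*, named for complex I, was counted with complex IV, where its protein sits. The symbol *Atp5o* stood for a pair of gene identifiers, and the one with reads, ENSMUSG00000022956, is meant below.

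All mice were BALB/c. The TG mice overexpressed *Ifnk*, which encodes interferon κ, from the keratin 14 promoter and hence in keratinocytes; the transgene was made on C57Bl/6 and backcrossed. Skin came from mice aged 12 months, and the labels of all skin libraries read NoTx, for no treatment. There were 3 WT libraries (samples 8, 9 and 10), 2 from nonlesional TG skin (NL, samples 2 and 3) and 4 from lesional TG skin (L, samples 4 to 7). Inguinal lymph nodes came as 3 libraries each of WT mice without treatment (NoTx, samples 1 to 3), TG NoTx (4 to 6), WT after ultraviolet B (UVTx, 7 to 9) and TG UVTx (10 to 12). Treated mice were shaved and received 250 mJ/cm2 of UVB on 3 days a week for 2 weeks, and nodes were taken after 2 more weeks. The labels named no mouse, sex or body site for a library, so the p-values measure the spread between these libraries, and NL and L skin may share animals.

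The respiratory chain moves electrons from food to oxygen and uses the energy to make ATP. Complex I takes electrons from NADH through a chain of iron-sulfur clusters, complex III passes them from ubiquinol to cytochrome c, complex IV hands them to oxygen, and complex V (ATP synthase) lets protons flow back to drive a rotary motor. In each complex a few core subunits do the chemistry and many supernumerary subunits surround them, and some core subunits are encoded in mitochondrial DNA and not in the nucleus. Several complex IV subunits exist as an isoform found in most tissues and another of heart and skeletal muscle, so a tissue sample with muscle fibres holds both.

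Library totals were 40499078 to 56511276 expected counts in skin and 27599809 to 36428435 in nodes, and the members together took 0.952% to 1.24% of the counts in skin and 0.448% to 0.637% in nodes. *Ifnk* itself had 0 counts in each WT skin library, 6 and 0 in NL, 14, 11, 5 and 8 in L, and 0 in every node library, where a count of 0 allows up to 3 counts. *Xist* was at 0.319 CPM (counts scaled to the library total) in NL 3 and 0.132 in L 6 against 78.9 to 179 in the other skin libraries. The skin libraries also differed in the tissues they held. The summed level of 12 skeletal muscle genes, none of them at 0 in any skin library, was 31408 to 43181 CPM in WT and 29350 to 33809 in NL, against 8358, 28.7, 435.7 and 1759 in L 4, 5, 6 and 7. Hair shaft genes summed to 1647 to 5188 CPM in L and at most 1.25 elsewhere, adipocyte genes to 185 to 1703 in L against 2887 to 5645 elsewhere, and 8 mitosis genes to 203 to 474 in L against 29.8 to 61 elsewhere. Neutrophil genes summed to 64.6 to 572 CPM in L against 12.2 to 20.3 elsewhere, plasma cell genes to 752 to 1217 against 433 to 646, and endothelial genes to 70 to 129 against 150.4 to 223. Epidermal markers were present in all skin libraries, and T and B cell markers were high in all node libraries (1793 to 2360 and 1233 to 2410 summed CPM).

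Promoter sequence was available for 66 members in RefSeq, the *Atp5o* identifiers sharing 1 entry, on mouse build GRCm38.p6 and covered 250 bases before to 50 bases after each start. A set of 4 motifs known from promoters of mitochondrial genes were searched on both strands. The core site of NRF1, GCGCANGCG, which can match overlapping on both strands, was found in 18 members (27.3%) against 7.03% of the 27025 genes with a promoter. The YY1 core AAGATGGCG was found in 7 members (10.6%, all genes 1.64%), the ETS core CCGGAAGT of the GABP type in 5 (7.58%, all genes 4.31%) and the ERR site TCAAGGTCA in 1, *Atp5g3* (1.52%, all genes 0.47%). In all, 27 members (40.9%) held at least 1 of these against 12.3% of all genes. The NRF1 letters were in 8 of 32 complex I promoters, 2 of 5 of complex III, 7 of 15 of complex V and 1 of 14 of complex IV, which was *Cox6a1*. A match describes the letters in this window and not the binding of a factor. No promoter was matched for *Cox6a2*, the muscle isoform with the largest fitted decrease in lesions. The 6 stretches of 70 bases below lie upstream of the gene starts of both RefSeq and GENCODE M21. They are shown because they set genes with and without the NRF1 letters (capitals) beside the muscle isoforms *Cox7a1* and *Cox8b*.
Ndufa11: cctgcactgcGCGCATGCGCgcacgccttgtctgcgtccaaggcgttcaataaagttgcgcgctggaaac
Atp5h: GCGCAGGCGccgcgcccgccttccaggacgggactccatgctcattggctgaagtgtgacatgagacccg
Cox6a1: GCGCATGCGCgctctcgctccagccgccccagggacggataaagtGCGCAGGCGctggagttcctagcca
Cox7a2: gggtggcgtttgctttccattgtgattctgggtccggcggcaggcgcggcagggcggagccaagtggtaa
Cox7a1: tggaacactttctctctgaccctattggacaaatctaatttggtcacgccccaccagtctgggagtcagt
Cox8b: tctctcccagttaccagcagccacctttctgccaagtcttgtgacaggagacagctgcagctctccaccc

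In GRCm38.p6 these windows are chr17:56717692-56717761 on the plus strand for *Ndufa11*, chr11:115419991-115420060 on the minus strand for *Atp5h*, chr5:115349051-115349120 (minus) for *Cox6a1*, chr9:79759879-79759948 (minus) for *Cox7a2*, chr7:30184074-30184143 (plus) for *Cox7a1* and chr7:140900447-140900516 (minus) for *Cox8b*. The 3 lower windows hold none of the 4 motifs. *Cox6a1*, the isoform of most tissues, has 2 separate stretches of NRF1 letters in its window.

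TPM values correct for depth and for the merged length of all annotated exons of a gene, which can exceed that of its main transcript. On this scale the most abundant members of WT skin were *Atp5a1*, the α subunit of ATP synthase, at 808 ± 46.8 TPM (SD, n = 3), *Cox4i1* at 801 ± 29.3 and *Atp5b*, the catalytic β subunit, at 790.5 ± 53.7. These 3 TPM levels lay within each other's spread. In CPM, without the correction for length, *Atp5b* was at 1400, *Atp5a1* at 1059 and *Cox4i1* at 520 in WT skin. The muscle isoforms were abundant there, with *Cox8b* at 444 ± 32.5 TPM beside 364 to 452 TPM for its counterpart *Cox8a*, and *Cox6a2* at 391 ± 43.1 TPM beside 301 to 342 TPM for *Cox6a1*. *Cox4i2*, a variant of *Cox4i1* known from lung and for its link to low oxygen, was at 2.29 ± 0.503 TPM and *Cox6b2*, known from testis, at 2.08 ± 0.0284 TPM. In WT NoTx nodes the TPM order was led by *Cox7a2l*, which helps complexes III and IV associate, at 651 ± 46.4 TPM, followed by *Atp5a1* at 587 ± 5.16 and *Atp5b* at 424 ± 22.3. In CPM, *Cox7a2l* was at 352 in these nodes, below *Atp5a1* at 674 and *Atp5b* at 657. After a filter on low counts, 78 members were tested in skin and 76 in nodes. *Cox8c*, *Cox7b2* and the other *Atp5o* identifier had no counts in skin and *Cox6c2* at most 11; *Cox8b* had 0 counts in every node library and *Cox6b2* at most 6.

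The first question in skin was how lesions differed from WT skin. Lesional skin had less RNA of 35 members and more of 3. Complex I carried most of the decrease, with 23 of its 36 members lower. All 3 complex III genes grouped as core (*Uqcrc1*, *Uqcrc2* and *Uqcrfs1*) were lower as well. The 3 that rose, *Cox4i2*, *Cox6a1* and *Cox8a*, all belong to complex IV. The edgeR quasi-likelihood test with Benjamini-Hochberg adjustment over 19101 genes called a gene at an adjusted p under 0.05, by which 20.2% of all genes were lower and 23% higher, against 44.9% and 3.85% of the members. The members' median log2 fold change was -0.29, the median of all genes 0.06, and 63 of 78 were lower. In 37 members (47.4%) all 4 lesional libraries lay below all 3 WT libraries, which held for 23.4% of all genes. In bulk tissue, fewer cells of a type and less RNA per cell cannot be told apart.

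**Figure D1:**
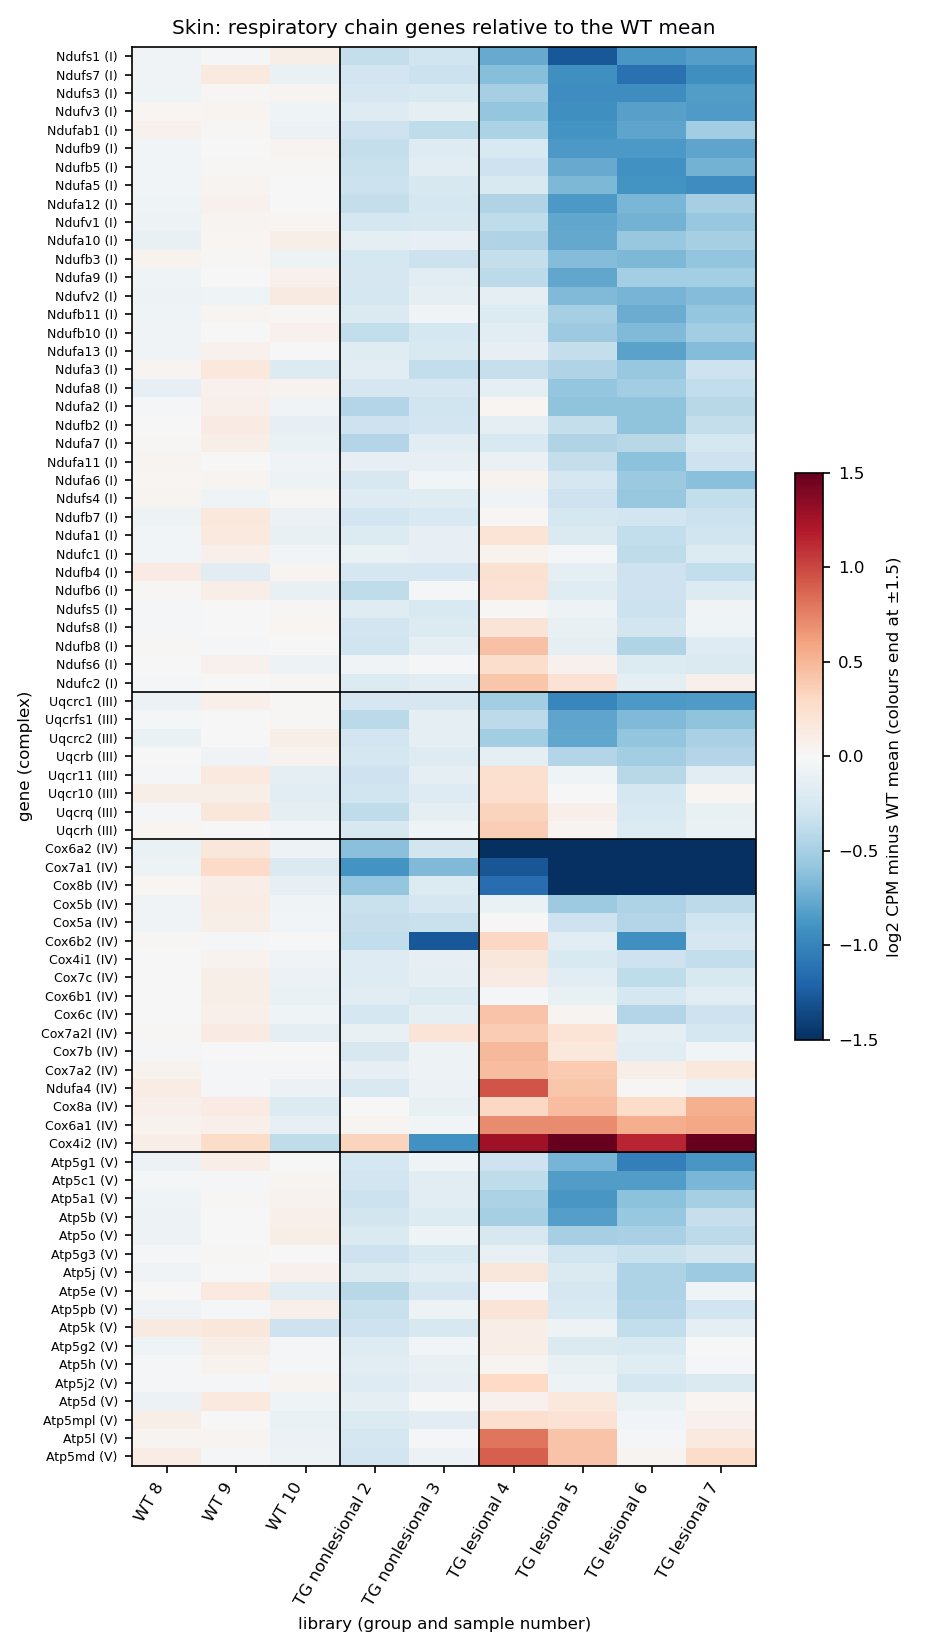
Level of the tested members (rows, by complex and ordered by its lesional change) in each skin library (columns), as log2 CPM minus the mean of the WT libraries, with colours ending at ±1.5. Blue runs through the upper rows of complexes I, III and V in L 5, 6 and 7 and more weakly in L 4, both NL columns are pale blue nearly throughout, and the dark blue block of complex IV is *Cox6a2*, *Cox7a1* and *Cox8b*.

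Complex I had a median log2 change of -0.44, and its 7 core subunits of nuclear origin one of -0.65. *Ndufs1* (chr1:63143596-63176833, minus strand), the largest iron-sulfur subunit of the arm that oxidises NADH, was at 189, 192 and 208 CPM in WT, 153 and 160 in NL, and 116, 81.2, 107 and 111 in L. All lesional libraries lay below all others, and the change from WT was -0.92 (SE 0.13, adjusted p = 0.00081). *Ndufs7*, which holds the cluster that hands electrons to ubiquinone, was at 85.9, 98.3 and 83.2 CPM in WT, 73 and 71 in NL, and 57.2, 46.9, 41 and 47.1 in L. Here too the groups did not overlap, and the change was -0.89 (SE 0.12, adjusted p = 0.00072).

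*Ndufs3*, a neighbour of *Ndufs7* in the connecting arm, was at 120, 126 and 129 CPM in WT, 105 and 106 in NL, and 88.2, 65.4, 65.7 and 69.9 in L, a change from WT of -0.79 (SE 0.12, adjusted p = 0.0011). *Ndufv1*, which binds NADH and flavin, fell by 0.60 on the log2 scale (adjusted p = 0.0028). *Ndufv2*, an iron-sulfur partner of *Ndufv1*, was at 163, 164 and 189 CPM in WT, and L 4 stood apart from the other lesional libraries, with 155 CPM against 109, 106 and 109. Its change was -0.52 (SE 0.15, adjusted p = 0.021).

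*Ndufs8*, another iron-sulfur core subunit of the connecting arm, was at 67.6, 69.4 and 70.5 CPM in WT and 78.9, 64.2, 57.1 and 66 in L. Its lesional values lay on both sides of the WT values (log2 change -0.05, SE 0.11, adjusted p = 0.72). Of the 29 supernumerary genes, 17 fell (median -0.38), led by *Ndufv3*, an accessory of the NADH arm, at 66.6, 67.1 and 62.6 CPM in WT, 57 and 59.1 in NL, and 43.8, 34.5, 37.1 and 36.2 in L (log2 change -0.79, SE 0.10, adjusted p = 0.00052). *Ndufc2* was the only member of complex I with a fitted change above 0 (0.15, SE 0.12, adjusted p = 0.35).

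In complex III, the 3 genes grouped as core and the rest parted. This group held *Uqcrc1*, *Uqcrc2* and *Uqcrfs1* and is not the same as the catalytic subunits. *Cyc1*, for cytochrome c1, was kept in another list, given below. *Uqcrc1* (chr9:108936633-108949623, plus strand), a core protein of the matrix side, was at 336, 376 and 361 CPM in WT, 300.1 and 300.7 in NL, and 249, 182, 196 and 199 in L, with no overlap between L and either other group (log2 change from WT -0.79, SE 0.12, adjusted p = 0.0013). *Uqcrfs1*, the Rieske iron-sulfur protein, was at 168, 170.3 and 172 CPM in WT and 129.7, 98.5, 107 and 112 in L (-0.61, SE 0.11, adjusted p = 0.0034). *Uqcrc2*, the partner of *Uqcrc1*, fell by 0.59 on the log2 scale (adjusted p = 0.0027). Of the 5 supernumerary genes only *Uqcrb* was called (-0.38, adjusted p = 0.017), and their median change was 0.01.

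Complex V had 5 called members, all lower, and a median change of -0.18. They included 3 of the 5 genes of the F1 head. *Atp5b* (chr10:128083273-128090391, plus strand) was at 1326, 1402 and 1472 CPM in WT, 1159 and 1211 in NL, and 989, 790, 945 and 1102 in L, so that the groups did not overlap (log2 change -0.55, SE 0.14, adjusted p = 0.013). *Atp5a1* fell by 0.61 on the log2 scale (adjusted p = 0.0066), and the rotor shaft gene *Atp5c1* fell by 0.67 (adjusted p = 0.0038).

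The c-ring, through which protons pass, is built from 1 protein encoded by 3 genes. Of these *Atp5g1* fell by 0.70 (SE 0.16, adjusted p = 0.0086), with 114, 130 and 121 CPM in WT and 98.2, 74.7, 59.7 and 66.5 in L. *Atp5g3* (-0.25, adjusted p = 0.060) and *Atp5g2* (-0.08, adjusted p = 0.57) did not pass the test. In the peripheral stalk *Atp5o* was called (-0.40, adjusted p = 0.012), and none of the 5 small membrane genes was, their median being 0.12.

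**Figure D2:**
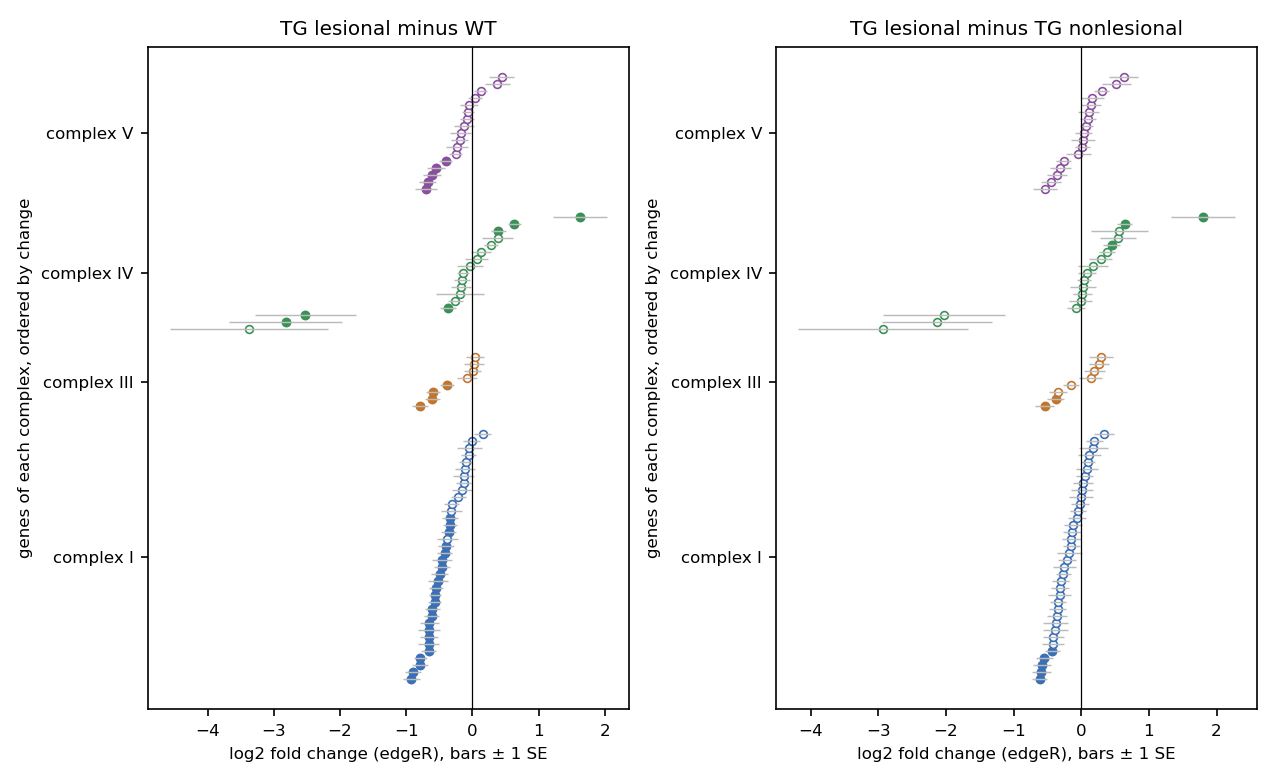
Fitted log2 fold change of each tested member (edgeR, bars ± 1 SE, filled where the adjusted p was under 0.05) from WT skin to lesional TG skin (left) and from nonlesional to lesional TG skin (right), grouped by complex and ordered by size. On the left complex I reaches down to -0.92 and the muscle isoforms of complex IV to -3.37, and on the right far fewer points are filled, 7 of them below and 3 above 0.

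Complex IV showed the widest spread. The isoforms of heart and skeletal muscle were the lowest against WT. *Cox8b* (chr7:140898945-140900446, minus strand) was at 68.1, 71.6 and 61.1 CPM in WT, 44.7 and 58 in NL, and 30.2, 1.70, 7.18 and 7.44 in L. L 4 kept the most and L 5 the least, and the change from WT was -2.52 (SE 0.76, adjusted p = 0.029). *Cox7a1* (chr7:30184144-30186078, plus strand) was at 38.5, 49.6 and 34.8 CPM in WT, 21.8 and 25.6 in NL, and 16.6, 0.863, 1.89 and 3.71 in L. The order of the lesional libraries was that of the muscle genes, and the change was -2.82 (SE 0.85, adjusted p = 0.029).

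*Cox6a2* (chr7:128205435-128206387, minus strand) was at 103, 125 and 105 CPM in WT, 71.5 and 91.7 in NL, and 35.6, 0.321, 1.94 and 4.77 in L. These groups did not overlap either, but with this spread the change of -3.37 (SE 1.20) did not pass the test (adjusted p = 0.051). As shares of the TPM of each isoform pair, *Cox6a2* made up 52% to 56.2% of *Cox6a2* plus *Cox6a1* in WT and 19.1%, 0.213%, 1.43% and 3.34% in L 4, 5, 6 and 7. For *Cox8b* beside *Cox8a* the shares were 51.1% to 53.1% in WT and 28.1%, 1.95%, 8.72% and 7.67% in L.

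The 11 complex IV genes grouped as found in most tissues had a median change of -0.03, with 5 higher and 6 lower. Of these 2 were called higher and 1 lower, where 23% and 20.2% of all genes were. *Cox6a1* (chr5:115345642-115348981, minus strand) was at 98.5, 100.1 and 87 CPM in WT, 97.6 and 92.3 in NL, and 156, 155, 138 and 143 in L. All lesional libraries were above all others, with a change from WT of 0.64 (SE 0.09, adjusted p = 0.00098). *Cox8a* was at 112, 117 and 93 CPM in WT, 107 and 99 in NL, and 133, 147, 129 and 154 in L (0.39, SE 0.11, adjusted p = 0.021), again with no overlap.

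*Cox7a2*, the partner of *Cox7a1*, was at 90.5 to 95.8 CPM in WT and 98.1 to 128 in L without passing the test (0.28, SE 0.11, adjusted p = 0.064). *Cox4i2* (chr2:152754173-152765037, plus strand) was low throughout, at 0.798, 0.902 and 0.569 CPM in WT, 0.937 and 0.392 in NL, and 1.80, 2.44, 1.65 and 3.44 in L (1.62, SE 0.41, adjusted p = 0.012). Its lesional values were all above the others but came from 75 to 191 counts a library, and it made up 0.604% to 1.66% of *Cox4i2* plus *Cox4i1* there. *Cox4i1* itself was at 501 to 540 CPM in WT and 402 to 583 in L (-0.17, SE 0.15, adjusted p = 0.37). *Ndufa4* was at 182 to 209 CPM in WT and at 373, 258, 196 and 182 in L (0.38, SE 0.23, adjusted p = 0.21), where L 4 was the highest. *Cox6b1*, *Cox6b2* and *Cox7b* did not pass the test (-0.14, -0.19 and 0.13), and the remaining call was *Cox5b* (-0.37, adjusted p = 0.032).

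**Figure D3:**
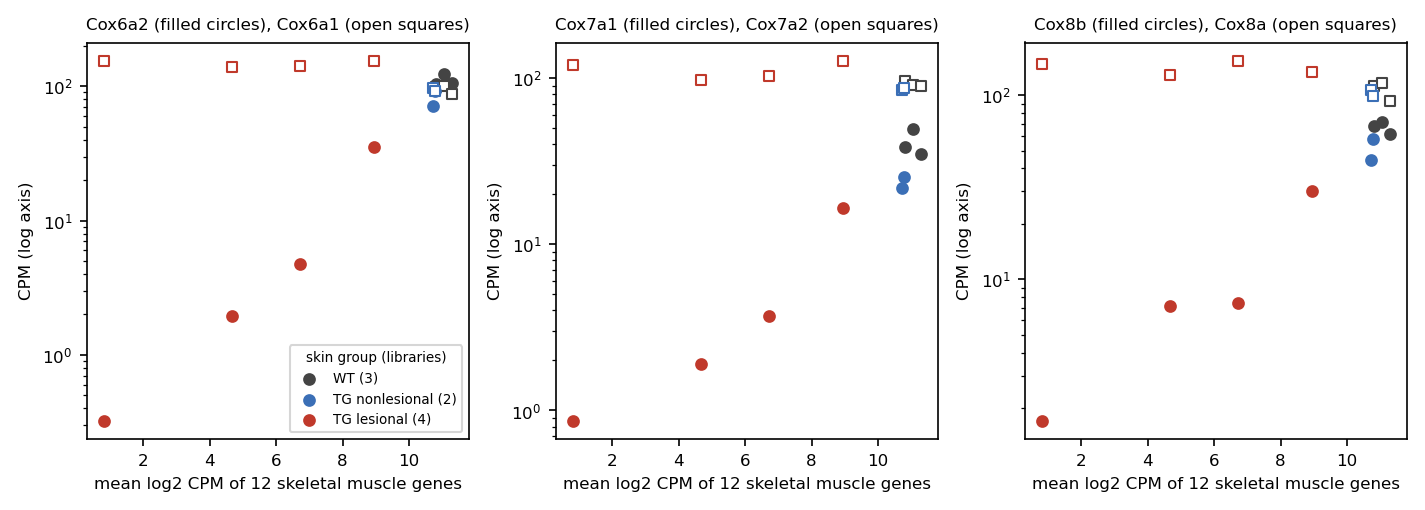
Level of each muscle isoform (filled circles) and its counterpart of most tissues (open squares) in the 9 skin libraries, in CPM on a log axis, against the mean log2 CPM of 12 skeletal muscle genes. The filled circles fall to the left with the muscle genes, down to 0.321 CPM for *Cox6a2* in L 5, while the open squares of the lesional libraries stay at 98.1 CPM or above.

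The muscle genes moved with these results, so their level was entered into the fit. Their mean log2 CPM was 10.8, 11.1 and 11.3 in WT, 10.7 and 10.8 in NL, and 8.95, 0.828, 4.69 and 6.72 in L 4, 5, 6 and 7. With this mean as a covariate, 4 of the 78 members were called between L and WT in place of 38, while 13.5% of all genes were. *Ndufs7* (-0.71, adjusted p = 0.042), *Ndufv3* (-0.58, adjusted p = 0.034) and *Ndufs1* (-0.56, adjusted p = 0.044) were lower and *Cox6a1* (0.62, adjusted p = 0.033) higher. *Cox8a* (0.33, SE 0.19) and *Cox4i2* (1.56, SE 0.63) kept a like change but lost the call, whereas *Cox6a2*, *Cox8b* and *Cox7a1* moved to -0.18, -0.41 and -0.61. The muscle mean was lower in every L library than in every other, so its part and that of the lesion cannot be fully told apart. The median over members was -0.09, and by complex it was -0.22 for I, -0.06 for III, 0.11 for IV and -0.02 for V. L 4, the lesional library with the most muscle RNA, was also the nearest to WT, with a median over members of -0.02 against -0.31, -0.47 and -0.33 in L 5, 6 and 7. Among L 5, 6 and 7 the order was not that of the muscle genes, as L 5 had the least muscle RNA and the smallest decrease. In complex IV the median of L 4 was 0.30, above the WT mean. Without L 4 the count of called members was 48, and without WT 10 it was 26. Without NL 3 and L 6, the libraries with low *Xist*, it was 24. The share of all genes called in the runs with libraries left out was not recorded. The part of hair shaft, adipocyte, mitosis, neutrophil, plasma cell and endothelial genes in these differences was not tested.

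Genes that work beside the members were taken from lists (calls adjusted over all genes, of which 20.2% were lower and 23% higher). All 6 of complex II, *Cyc1* and *Cycs* were lower in L than in WT, led by *Sdha*, the flavoprotein that oxidises succinate (-1.24, adjusted p = 0.00079), and *Sdhc* (-0.82, adjusted p = 0.00074). Of the 13 subunits encoded in mitochondrial DNA 4 were lower and none higher (median -0.57), with *mt-Nd2* at -1.23 and *mt-Nd4l* at -1.18. Of the assembly factors, 6 were lower and 1 higher among 15 for complex I (*Ecsit* -1.02, *Acad9* 0.79), 4 lower of 6 for complex III (*Lyrm7* -1.06, *Uqcc1* -0.99), 8 lower and 2 higher of 22 for complex IV (*Taco1* -0.65, *Pet100* 0.91) and 2 lower of 3 for complex V (*Tmem70* -0.59). The 13 regulators of mitochondrial genes had 2 calls each way, a smaller share than all genes: *Ppargc1b*, a coactivator of mitochondrial biogenesis, and *Tfb2m* were lower (-1.08 and -0.56), and *Gabpb1* and *Nrf1* were higher (0.62 and 0.48).

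Lesional and nonlesional TG skin were compared next. Of the members, 7 were lower (8.97%) and 3 higher (3.85%), against 11.8% and 13.2% of all genes, so the members' share of calls lay below the background. The lower ones were *Ndufv3* (-0.62, SE 0.11, adjusted p = 0.0059), *Ndufs1* (-0.59), *Ndufs7* (-0.58), *Ndufs3* (-0.55) and *Ndufa10* (-0.43) of complex I and *Uqcrc1* (-0.54) and *Uqcrc2* (-0.38) of complex III, and none of complex V was called. The higher ones were again *Cox4i2* (1.80, adjusted p = 0.026), *Cox6a1* (0.64, SE 0.11, adjusted p = 0.0043) and *Cox8a* (0.45, adjusted p = 0.033). All 10 had the same direction against WT, a comparison that uses the same lesional libraries. *Cox6a2*, *Cox8b* and *Cox7a1* were at -2.93, -2.14 and -2.03 with adjusted p = 0.12, 0.091 and 0.14. The median over members was -0.03, and by complex it was -0.19 for I, -0.01 for III, 0.09 for IV and 0.04 for V. With only 2 nonlesional libraries these calls depended on each library, and the count was 3 without NL 2, 0 without NL 3 and 26 without L 4. The count was 0 with the muscle covariate, where 6.55% of all genes were called. For the runs with a library left out that share was not recorded. Of the partner lists, complex II with *Cyc1* and *Cycs* had 3 lower of 6 (*Sdha* -0.94), assembly of complex III 4 lower of 6, that of complex I 2 lower and 1 higher of 15 (*Ecsit* -0.69, *Acad9* 0.54), that of complex IV 2 lower and 2 higher of 22 (*Pet100* 0.95) and that of complex V 1 lower of 3. Of the 13 regulators 1 was lower, and 0 of the 13 mitochondrially encoded genes were called.

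Between nonlesional TG and WT skin no member was called by edgeR or DESeq2. Of all genes, edgeR called 0% and DESeq2 62 higher and 18 lower. The fitted changes were nonetheless nearly all of 1 sign. In this comparison 77 of 78 members were lower, and the median was -0.22 against -0.00 for all genes. Both NL libraries lay below all WT libraries for 62 members (79.5%, all genes 16.3%). The members share these libraries, so their signs are not separate observations. At an unadjusted p under 0.05, 6 members were lower (7.69%, all genes 2.21%) and 0 higher (all genes 5.46%). The smallest p belonged to *Cox5a*, a matrix subunit of complex IV, at 122, 135 and 124 CPM in WT and 99.8 and 100.2 in NL (-0.34, SE 0.14, unadjusted p = 0.034, adjusted p = 0.63). *Ndufb3*, of the complex I membrane arm, was at -0.30 (unadjusted p = 0.034) and *Ndufab1*, the mitochondrial acyl carrier protein, at -0.35 (unadjusted p = 0.037). The exception in sign was *Cox7a2l* (0.04, SE 0.20), whose groups overlapped. With the muscle covariate the members' median was -0.20. Epidermal markers summed to 17435 and 19681 CPM in NL against 9542 to 11777 in WT, endothelial markers to 150.4 and 165.3 against 192 to 223, and plasma cell markers to 614 and 646 against 433 to 480, and their part was not tested.

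In lymph nodes the first question was what remained of UVB in WT mice. Nearly the whole set was slightly lower after UVB, in every complex to a like extent, but few single genes passed the test. The median over members was -0.30, by complex -0.27 for I, -0.33 for III, -0.29 for IV and -0.32 for V, against -0.00 for all genes, and 75 of 76 members were lower. Of these 3 were called lower (3.95%, all genes 2.06%) and 0 higher (all genes 2.92%) by edgeR, and 13 lower (17.1%, all genes 5.41%) and 1 higher (all genes 6.76%) by DESeq2. At an unadjusted p under 0.05, 42 members were lower (55.3%, all genes 12.1%) and 1 higher. In 44 (57.9%, all genes 17.3%) every irradiated library lay below every untreated one. Members moved together within a library, so such counts of members are not counts of separate observations. Among the untreated WT libraries, 74 of 76 members lay below the WT NoTx mean in WT NoTx 1 and 3 in WT NoTx 2.

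The called genes were *Ndufc2* and *Ndufs4*, both supernumerary subunits of complex I, and *Atp5g1* of the c-ring. *Ndufs4* was at 35.1, 47.6 and 40 CPM in WT NoTx and 31, 28.8 and 31.6 in WT UVTx, without overlap (log2 change -0.42, SE 0.11, adjusted p = 0.041). *Ndufc2* was at 27.7, 34.3 and 31.9 CPM against 25.3, 19.6 and 22.8 (-0.47, SE 0.12, adjusted p = 0.043), and *Atp5g1* at 40, 42.6 and 39.1 CPM against 33.3, 27.7 and 29.7 (-0.42, SE 0.11, adjusted p = 0.042). In both the groups again did not overlap. *Ndufab1* was the one member that lay higher after UVB, at 24.1, 26.6 and 22.6 CPM in WT NoTx and 30.5, 31 and 29.9 in WT UVTx (0.32, SE 0.09, adjusted p = 0.066). These counts rested on single libraries. They were 0 without WT NoTx 2 or 3, TG NoTx 4 or 6, or WT UVTx 8 or 9. They were 2 without WT NoTx 1 or WT UVTx 7, 13 without TG UVTx 10 and 33 without TG UVTx 12. The TG libraries entered through the shared estimate of spread. The share of all genes called in these runs was not recorded.

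Other measures moved with this difference. Summed CPM of red cell markers was 134, 121 and 265 in WT NoTx and 14.5, 10.8 and 39.5 in WT UVTx, and that of mitosis markers was 78 to 129 and 175 to 305. T cell markers went from 2246 to 2360 in WT NoTx to 1793 to 2013 in WT UVTx with 2 of 6 called lower, lymphatic and endothelial markers from 275 to 320 to 198 to 236 with 1 of 4, and fibroblast markers from 36.4 to 54.7 to 11.7 to 32.8 with 1 of 5. Short genes as a class were lower too, with a median of -0.27 over the 294 protein-coding genes with under 1000 bases of exon, 82% of which were lower, against -0.00 over the others. Members under and over that length had medians of -0.33 and -0.29. The part of these cell type markers and of length in the members' values was not tested. Few of the listed partner genes were called, where 2.06% of all genes were lower and 2.92% higher. Lower were 1 of 6 of complex II with *Cyc1* and *Cycs* (*Sdhc*, -0.39), 1 of 15 assembly factors of complex I (*Ndufaf8*, -0.70) and 1 of 21 of complex IV (*Cox15*, -0.37). Of the 13 regulators 1 was higher, *Polrmt*, the mitochondrial RNA polymerase (0.36). None of the 13 mitochondrially encoded genes and no assembly factor of complex III or V was called.

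**Figure D4:**
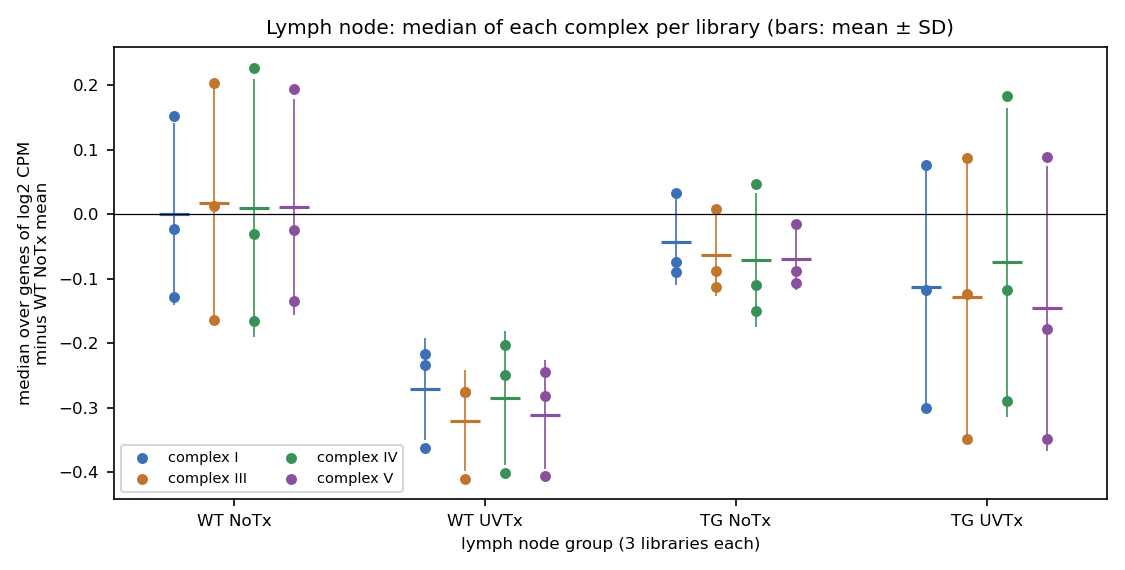
Median over the members of each complex of log2 CPM minus the WT NoTx mean, for each lymph node library (points) in the 4 groups, with the mean ± SD of the 3 libraries as bars. The WT UVTx medians lie at -0.20 or below in all 4 complexes, under every WT NoTx library, while those of TG UVTx spread from -0.35 to 0.18.

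In TG nodes UVB left no member called by edgeR or DESeq2, and none reached an unadjusted p under 0.05 in either direction (0% of all genes were called by edgeR, and 4.9% were higher and 4.42% lower at that unadjusted level). The median over members was -0.05, with 57 of 76 lower, and it was -0.16 without TG UVTx 12 and 0.04 without TG UVTx 10. The irradiated TG libraries were spread, with medians over all members of -0.30, -0.12 and 0.10 in TG UVTx 10, 11 and 12 against 0.02, -0.10 and -0.09 in TG NoTx. The WT libraries were at -0.25, -0.40 and -0.23 after UVB and at -0.14, 0.17 and -0.03 without it. *Atp5g1* was at 39.7, 36.4 and 39.2 CPM in TG NoTx and 30.8, 37.8 and 40.1 in TG UVTx, and *Ndufc2* at 32.1, 29.4 and 30.3 and at 25, 30.3 and 30.5, so both groups overlapped. Red cell markers summed to 304, 292 and 262 CPM in TG NoTx and to 26.2, 117 and 160 in TG UVTx, and their part was not tested. The smallest p belonged to *Ndufs1* (-0.15, SE 0.08, unadjusted p = 0.11, adjusted p = 0.62), followed by *Ndufs4* (-0.17) and *Ndufv1* (-0.14).

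The UVB effects of the genotypes were set against each other by an interaction term. Its median over members was 0.25 (TG effect minus WT effect, all genes 0.01), and 75 of 76 members had a value above 0, but no member was called by edgeR or DESeq2 (all genes 0% by edgeR). The members moved together within a library, so their signs are not separate observations. Their median was 0.14 without TG UVTx 12, 0.15 without WT NoTx 2 and 0.37 without TG UVTx 10. At an unadjusted p under 0.05, 3 members were higher (3.95%, all genes 3.01%) and 0 lower (all genes 2.44%). They were *Ndufb9* (0.49, SE 0.20, unadjusted p = 0.028), *Atp5g1* (0.34, unadjusted p = 0.042) and *Ndufc2* (0.37, unadjusted p = 0.045), each with adjusted p = 0.85. A difference between the genotypes in the UVB effect was therefore not shown for any single member.

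Genotype was compared within each treatment. Without UVB, the members' median was -0.08 in TG against WT, none was called by edgeR or DESeq2, and none was at an unadjusted p under 0.05 (all genes 0% called by edgeR, and 1.77% higher and 1.63% lower unadjusted). *Atp5c1* (-0.17, unadjusted p = 0.13), *Cox8a* (-0.20, unadjusted p = 0.20) and *Cox6a2* (0.40, unadjusted p = 0.22) had the smallest p, each with an adjusted p of 1. After UVB, 75 of 76 members were higher in TG than in WT, with a median of 0.17, yet 0 were called by edgeR or DESeq2 (all genes 0% by edgeR). Here too the signs of members are not separate observations. The median was 0.07 without TG UVTx 12 and 0.29 without TG UVTx 10. At an unadjusted p under 0.05, 12 were higher (15.8%, all genes 4.14%) and 0 lower (all genes 2.85%), and in 8 (10.5%, all genes 5.39%) every TG library lay above every WT library. *Ndufc2* had the smallest p (0.34, SE 0.12, unadjusted p = 0.013, adjusted p = 0.67). *Cox4i2* was at 0.0601, 0.182 and 0.398 CPM in WT UVTx and 0.407, 0.766 and 0.642 in TG UVTx (1.48, SE 0.58, unadjusted p = 0.024), on 2 to 13 counts a library in WT UVTx, and *Ndufa10* was at 0.22 (unadjusted p = 0.029).

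**Figure D5:**
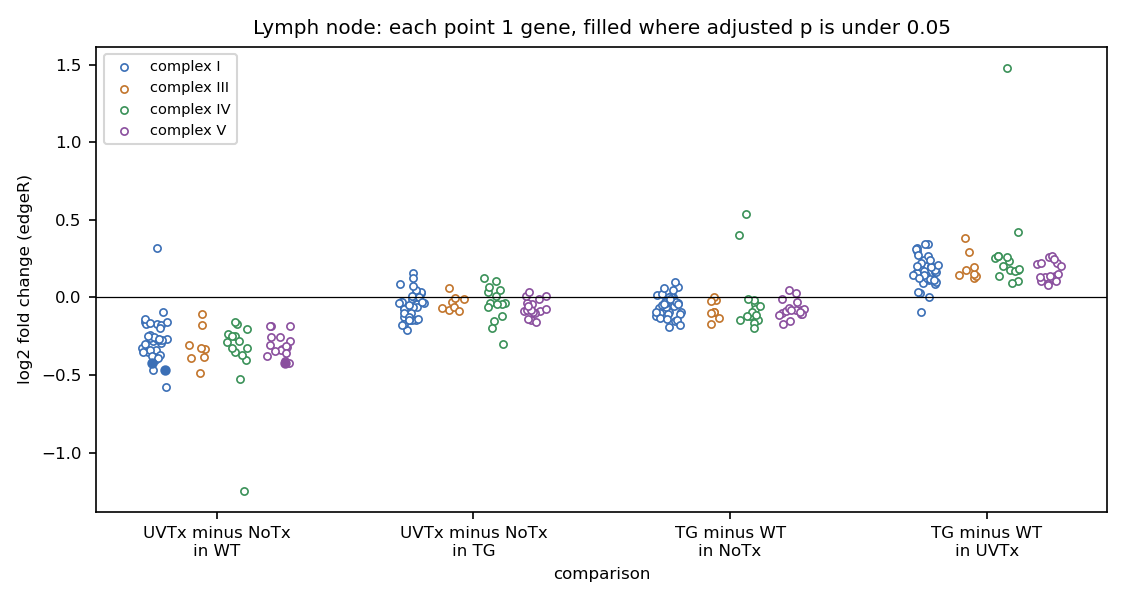
Fitted log2 fold change (edgeR) of each of the 76 tested members in the 4 lymph node comparisons, coloured by complex and filled where the adjusted p was under 0.05. For UVB in WT 75 points lie below 0 and 1 above, with 3 filled. The points lie from -0.30 to 0.15 for UVB in TG and from -0.20 to 0.53 for genotype without UVB. For genotype after UVB 75 lie above 0 and 1 below. *Cox4i2* is the outermost green point, at -1.25 in the first comparison and 1.48 in the last.

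The muscle isoforms differed in how far they appeared outside skin. In nodes, where 12 skeletal muscle genes summed to 3.34 to 7.20 CPM, *Cox6a2* made up 3.53% to 7.92% of its pair and *Cox7a1* 0.44% to 2.41%, and *Cox8b* had 0 counts in every library. The node shares of *Cox6a2* lay above those of L 5, 6 and 7 in skin.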

How the data were processed

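The authors trimmed reads of poly-A libraries with cutadapt 4.8, aligned them to GRCm38 with STAR 2.7.8a, and deposited expected counts per gene from RSEM 1.3.3 with 1 column per library. The annotation release is not given in the sources used here. Expected counts were filtered with filterByExpr and scaled by TMM, and all libraries of a tissue entered 1 edgeR 4.0.16 quasi-likelihood fit in R 4.3.3, with adjusted p under 0.05 called. CPM values use TMM-scaled library sizes. TPM values were computed from exon lengths of GENCODE M21. A covariate fit added the mean log2 CPM of 12 muscle genes. DESeq2 1.42.0, other scaling, filters, sample sets and left-out libraries were tried, and the code was tested on simulated data. The floor of 3 counts covers counting error only, whereas SDs and SEs reflect the spread between libraries.

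Members and gene lists were chosen with earlier results of these data known. One gene counted among the members is not reported here by name. Named genes were the other core subunits, isoform pairs, F1 and c-ring genes, the largest called changes by complex and, where none was called, the 3 smallest p-values. *Cox5b*, *Uqcrb*, *Atp5o*, *Ndufa10*, *Cox7a2l*, *Ndufab1* and *Ndufc2* were in places named after their values were seen, as the exceptions or to complete a short count.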

Additional observations from a re-analysis of the deposited data

Results flagged for a closer look

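Among 34 values of members in the 4 lesional skin libraries, 1 stood out by Dixon's test, where chance alone picks about 1 in 20. *Ndufv2* was at 155.4 CPM in L 4 and 105.6 to 109 CPM in the other 3 lesional libraries, a gap of 0.92 of the whole range. L 4 also held the most skeletal muscle RNA of the lesional libraries. No member was moved by UVB in opposite directions in every library of the genotypes.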

How the results depend on the processing

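No called member changed direction under any alternative run, and scaling by another method moved no count of called members by over 1.5 times. For L against WT, the 38 called members became 4 with the muscle covariate, 24 without the 2 libraries with *Xist* under 1 CPM (an alternative chosen after seeing the data) and 19 at an adjusted p under 0.01, and 26 to 48 when each library was left out, with a median of -0.40 to -0.23. DESeq2 gave 39. For L against NL, the 10 called members became 17 with DESeq2, 3 with only the groups compared, 0 with the muscle covariate, 0 without the low-*Xist* libraries, 2 at an adjusted p under 0.01 and 0 to 26 with each library left out. For UVB in WT nodes, the 3 called members became 14 with DESeq2, 18 with only the groups compared, 0 at an adjusted p under 0.01 and 0 to 33 with each library left out, with a median of -0.40 to -0.20. The cause was not tested. With the muscle covariate, 13.5% of all genes were called for L against WT and 6.55% for L against NL. For runs other than the main fit, DESeq2 and the muscle covariate, the share of all genes called was not recorded. The count stayed at 0 in each run alternative for NL against WT, UVB in TG nodes, both genotype comparisons of nodes and the interaction. Over all called members, named or not, 126 alternative values lost the call and 558 did not for L against WT, 63 and 117 for L against NL, and 24 and 33 for UVB in WT nodes. Small medians changed sign when single libraries were left out, over -0.14 to 0.03 for L against NL, -0.16 to 0.04 for UVB in TG nodes and -0.14 to 0.03 for genotype without UVB; the ranges were 0.07 to 0.29 for genotype after UVB and 0.14 to 0.37 for the interaction. No paired analysis was possible because the groups compared share no sample number and the labels name no mouse. Comparisons with NL rest on 2 libraries, and *Cox4i2* in nodes on 2 to 41 counts a library.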
